A study of Mus musculus with 10 samples.

Results

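The heat shock chaperones described here are 10 genes, Hspa1a, Hspa1b, Hspa8, Hsph1, Dnajb1, Bag3, Hsp90aa1, Hspd1, Hspe1 and Hspb1, selected by gene symbol from the 55487 genes of the expression table. Their transcripts were measured by RNA sequencing of intestinal epithelial cells (IECs) from the colon of 5 WT and 5 RhoB-/- mice, with 1 library per mouse. All mice were on the C57BL/6J strain background and no treatment is given in the labels. RhoB-/- mice are homozygous knockouts of RhoB, for which no restriction to a tissue is named, so the loss was not limited to the epithelium. By the study's methods the WT mice were bought from a supplier and the knockout line was made at another centre, and no source used here says that the sequenced mice were littermates, so genotype and origin cannot be told apart. By the study's general methods the mice were young adults and the bought WT mice were male. The sex of the sequenced RhoB-/- mice is not given in the sources used here. IECs of both genotypes were released with EDTA, first on ice and then at 37 °C, and were lysed with no sort named, so an IEC library can hold other cells of the mucosa.

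Heat shock proteins are chaperones that hold unfolded proteins, refold them with ATP or pass them on for degradation. Some of their genes are transcribed at all times, whereas others are switched on when misfolded protein accumulates and the transcription factor HSF1 binds heat shock elements, repeats of the unit GAA and its complement TTC, in front of their start sites. The colon epithelium is renewed continually and faces bacterial products, and inducible Hsp70 and the small heat shock protein Hsp25, the product of Hspb1, are known there as cytoprotective proteins.

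The 10 genes belong to the main chaperone machines of the cell. Hspa1a and Hspa1b encode the inducible Hsp70 and Hspa8 the constitutive Hsc70. Dnajb1 encodes Hsp40, a J-domain protein that delivers clients to Hsp70 and starts ATP hydrolysis. Hsph1 (Hsp110) and Bag3 act as nucleotide exchange factors of Hsp70, and BAG3 also links it to small heat shock proteins and autophagy. Hsp90aa1 encodes the inducible Hsp90 alpha. Hspd1 (Hsp60) and Hspe1 (Hsp10) form the folding chamber of the mitochondrial matrix, and Hspb1 encodes a small heat shock protein that holds unfolded proteins without ATP.

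Several members share position or sequence. On GRCm38, Hspa1b (chr17:34956436-34959238) and Hspa1a (chr17:34969190-34972156) lie 9951 bases apart on the minus strand, each with 1 exon, and Hspa1l starts 546 bases beyond Hspa1a on the plus strand. The coding sequences of Hspa1a and Hspa1b were identical at 99.43% of aligned positions, with 8 mismatched positions and 3 gap positions. Of the 150-base windows of the Hspa1a transcript, 38.1% occur letter for letter in Hspa1b, so the split of reads between the genes is uncertain and their sum is given as well. Hspd1 (chr1:55077835-55088243, minus strand) and Hspe1 (chr1:55088132-55091307, plus strand) lie head to head and overlap by 112 bases.

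Sequence upstream of the start sites is shown because heat shock elements are the sites that HSF1 binds in front of inducible heat shock genes. RefSeq windows were matched for 8 of the 10 members, not for Hspa8 or Hsp90aa1. The search used the 250 bases before each start and the letters GAANNTTC or TTCNNGAA for 2 units and GAANNTTCNNGAA or TTCNNGAANNTTC for 3 units. Each motif with 2 units reads the same on both strands, the motifs with 3 units are complements of each other, and a match with 3 units also holds matches with 2. The sequences are from RefSeq on GRCm38.p6, written 5′ to 3′ on the strand of the gene, and capitals mark the matches. The whole window is given for Hspa1a (chr17:34972157-34972406, minus strand), the gene with the largest difference between the genotypes, and for Hspb1 (chr5:135887669-135887918, plus strand), which has separate matches. Only 30 bases around the match are given for Hspe1 (chr1:55088053-55088082, plus strand) and Hsph1 (chr5:149636351-149636380, minus strand).
Hspa1a: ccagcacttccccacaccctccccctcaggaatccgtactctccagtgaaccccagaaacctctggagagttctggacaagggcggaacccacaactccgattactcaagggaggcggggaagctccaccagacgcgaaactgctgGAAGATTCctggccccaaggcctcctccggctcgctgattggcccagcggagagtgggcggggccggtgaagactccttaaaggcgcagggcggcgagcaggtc
Hspb1: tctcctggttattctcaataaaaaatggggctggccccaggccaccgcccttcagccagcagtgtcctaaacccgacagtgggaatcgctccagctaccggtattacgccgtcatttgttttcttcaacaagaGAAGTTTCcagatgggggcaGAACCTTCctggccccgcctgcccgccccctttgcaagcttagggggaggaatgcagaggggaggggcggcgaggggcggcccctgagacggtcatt
Hspe1: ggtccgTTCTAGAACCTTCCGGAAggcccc
Hsph1: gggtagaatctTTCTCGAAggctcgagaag

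A match with 2 units was found in 6 of the 8 members with a window, against 12.8% of all 32851 windows and 14.5% of the 27025 genes with a window. The window of Hspa1b was identical to that of Hspa1a at 247 of 250 positions and held the same match, from 104 to 97 bases before the start. Hspb1 held a match from 117 to 110 and another from 97 to 90 bases before the start. The match of Hsph1 lay closer, from 33 to 26 bases before 1 RefSeq start and from 54 to 47 before the other. It lies within the annotated span of the gene (chr5:149614287-149636376). Hspe1 and Hspd1 held matches with 3 units, which 0.514% of genes have, and both read the same 18 bases, chr1:55088059-55088076, from opposite strands. For Hspd1 these bases lie before the inner of its 2 starts, within the annotated span of the gene. The window before its outer start held no match. No match was found in the windows of Dnajb1 or Bag3, which says only that these letters are absent there. Among the 93 other chaperone genes with a window, 13 held a match with 2 units and 1, Dnajb6, a match with 3 units.

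**Figure D1:**
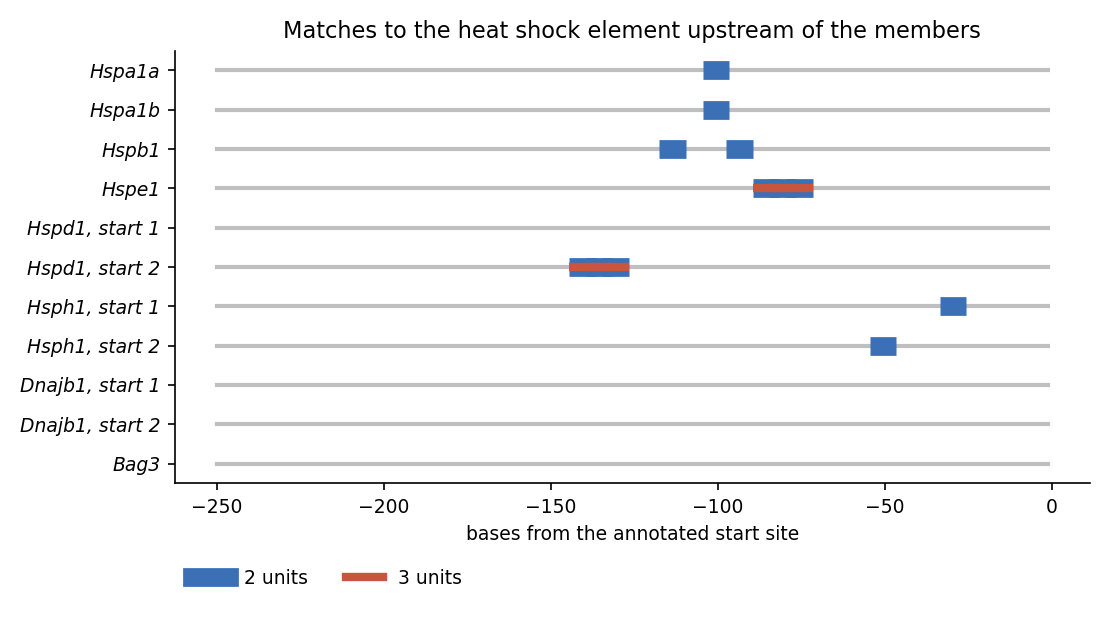
Matches to the heat shock element in the 250 bases before each annotated start site (x axis, bases from the start; grey lines, the windows searched) of the 8 members with a RefSeq window, with a line for each start where a gene has more. Blue blocks are matches with 2 units and red bars those with 3 units; the matches of Hspa1a, Hspa1b, Hspb1 and Hspe1 lie between 117 and 72 bases before the start, and Dnajb1 and Bag3 have none.

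The libraries differed in ways that bear on all members. The values are TPM, a measure relative to gene length and to the library total that keeps no sequencing depth, so no counting error is known. The targeted gene Rhob had a TPM of 170.5 to 388.7 in the WT libraries and of 0.09, 0.10, 0.35 and 0.57 in RhoB-/- replicates 1 to 4. Rhob reached 110.9 TPM in the library labelled RhoB-/- replicate 5, so results are also given without it. The share of TPM in mitochondrially encoded genes was 17.5% to 26.5% in WT and 10.3% to 22.4% in RhoB-/- libraries (difference -3.81 percentage points, exact permutation test over 252 relabellings, two-sided p = 0.222, smallest possible 0.00794). Colonocyte and goblet cell markers were abundant in every library, as the IEC label says, with a summed TPM of at least 15201 and 13801. Fold changes below are differences of mean log2(TPM + 1), RhoB-/- minus WT, a scale on which differences of weakly expressed genes look smaller than they are. Their median over the 12870 tested genes (mean TPM 1 or more) was -0.13. The genes were selected because they were known to be lower in these RhoB-/- libraries, so the values that follow are a description and no test is given for them.

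All 10 members were expressed in every library, and all 10 had a lower mean in RhoB-/- than in WT IECs, as did 65.4% of all tested genes. The size of the difference varied widely, from a 15.4-fold ratio of mean TPM for Hspa1a to a 1.31-fold ratio for Hspa8. Hspa1a, Hspa1b and Hspb1 were at 6.51% to 9.02% of their WT mean, Hsp110, Hsp40 and Hsp90 alpha at 36.1% to 41.2%, and Bag3, the mitochondrial pair and Hsc70 at 60.4% to 76.5%. The median log2 fold change of the members was -1.30 (-1.29 without the library labelled RhoB-/- replicate 5). In the fit over all genes, 8 members were below WT by the rule used for calls (adjusted p below 0.05, fold above 1.5), which 7.13% of the tested genes met in that direction. The WT and RhoB-/- values of 9 members did not overlap, against 8.55% of tested genes in that direction, and the same 9 did not overlap without the library labelled RhoB-/- replicate 5. Since this contrast chose the members, nothing is read from these counts. Among the tested genes ranked from the lowest log2 fold change, Hspa1a stood at 4, Hspa1b at 5, Hspb1 at 17 and Hsph1 at 83, and Hspa8 at 2514.

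**Figure D2:**
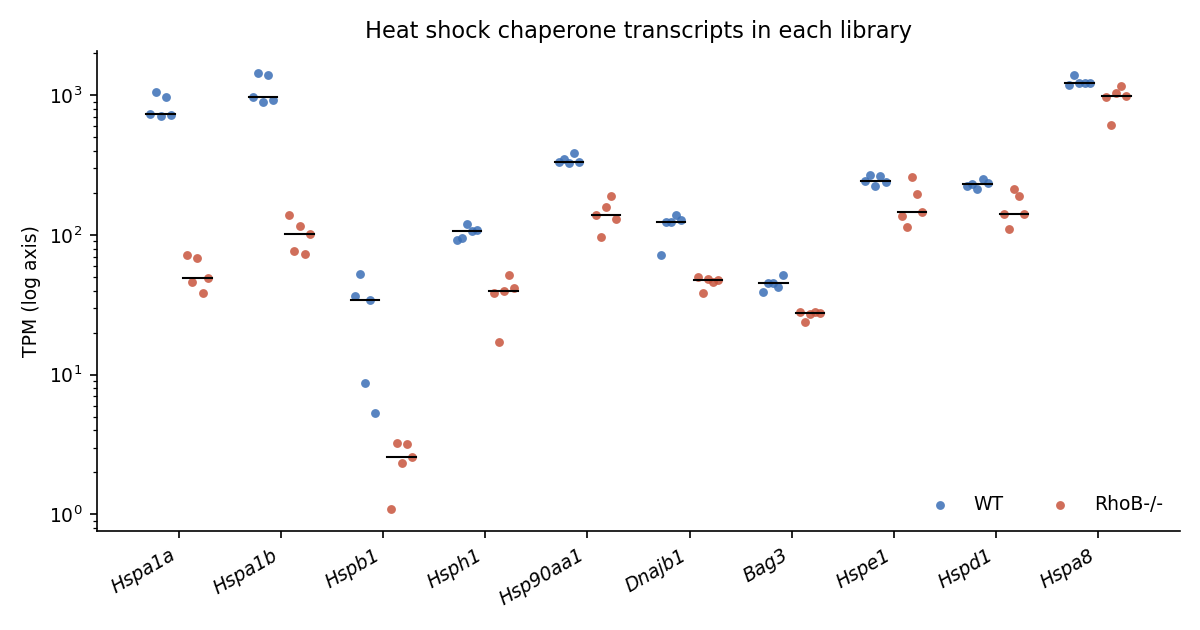
TPM of the 10 heat shock chaperones in each library (log axis), ordered by log2 fold change, with WT in blue, RhoB-/- in red and a black line at the median of each 5 libraries. Hspa1a and Hspa1b sit about an order of magnitude lower in RhoB-/-, Hspb1 spreads widely within WT, and Hspe1 is the member whose groups overlap.

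Inducible Hsp70 showed the widest gap. Hspa1a had a TPM of 737.5, 1065, 712.6, 976.6 and 718.2 in WT replicates 1 to 5 and of 71.7, 46.1, 68.5, 38.4 and 49.3 in RhoB-/- replicates 1 to 5. The lowest WT library was 9.94-fold above the highest RhoB-/- library, and the log2 fold change was -3.93 (SE 0.19). Hspa1b had a TPM of 981.6, 1456, 901.9, 1390 and 923.0 in WT and of 139.1, 77.1, 116.1, 72.9 and 102.6 in RhoB-/- libraries, again without overlap (log2 fold change -3.47, SE 0.21). In both genes WT replicates 2 and 4 were the highest of their genotype and RhoB-/- replicates 2 and 4 the lowest. The sum over the pair depends less on how reads were split, though the transcripts differ slightly in length (2967 and 2803 bases). Summed TPM was 1973 ± 435 (SD, n = 5) in WT IECs and 156.3 ± 41.5 (SD, n = 5) in RhoB-/- IECs, a 12.6-fold ratio. The ratio of Hspa1b to Hspa1a was 1.27 to 1.42 in WT and 1.67 to 2.08 in RhoB-/- libraries, so Hspa1b kept a larger part of its WT level (8.98%) than Hspa1a (6.51%) as the reads were assigned. The antisense gene Gm20481, which overlaps Hspa1a, reached at most 0.72 TPM in any library.

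Constitutive Hsc70 differed far less from WT. Hspa8, the member with the highest mean, had a TPM of 1180, 1410, 1225, 1231 and 1221 in WT and of 978.9, 615.3, 1037, 1170 and 992.4 in RhoB-/- libraries. The lowest WT library was 1.008 times the highest RhoB-/- library, and RhoB-/- replicate 2 was far below the rest (log2 fold change -0.41, SE 0.16). Because TPM is scaled by length, levels can be set side by side between genes. In WT IECs the summed TPM of inducible Hsp70 exceeded that of Hspa8 in every library, with a ratio of 1.32 to 1.92. In RhoB-/- IECs the order was turned, with a ratio of 0.0952 to 0.215. The inducible pair took 41.4% to 49.4% of the summed TPM of the members in WT and 5.60% to 12.2% in RhoB-/- libraries. Without the pair, the other 8 members still summed to less in every RhoB-/- library (1020 to 1878 TPM) than in any WT library (2222 to 2580 TPM).

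The partners of Hsp70 were at intermediate levels. Dnajb1, the Hsp40 that starts the Hsp70 cycle, had a TPM of 72.2, 123.5, 123.2, 139.3 and 127.2 in WT and of 49.9, 38.2, 48.5, 46.3 and 47.3 in RhoB-/- libraries. Its RhoB-/- values were close together (46.1 ± 4.59, SD, n = 5), whereas WT replicate 1 stood well below the other WT libraries but above every RhoB-/- library (log2 fold change -1.30, SE 0.17). Hsph1, the Hsp110 that releases ADP from Hsp70, had a TPM of 92.8, 95.0, 119.9, 106.3 and 109.3 in WT and of 38.4, 17.3, 39.8, 51.6 and 41.9 in RhoB-/- libraries. The groups did not overlap and RhoB-/- replicate 2 was the lowest (log2 fold change -1.52, SE 0.23). Bag3, which hands Hsp70 clients to autophagy, varied little within either genotype, with a TPM of 38.8, 45.7, 45.1, 42.4 and 51.5 in WT and of 28.2, 23.8, 27.0, 28.2 and 27.8 in RhoB-/- libraries. Its difference was small but wider than the spread within either genotype (log2 fold change -0.70, SE 0.10).

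Hsp90 alpha was separated from its constitutive paralogue. Hsp90aa1 had a TPM of 332.4, 351.8, 327.8, 388.5 and 333.4 in WT and of 138.5, 97.1, 158.6, 190.7 and 129.5 in RhoB-/- libraries. Every RhoB-/- library was below every WT library (log2 fold change -1.31, SE 0.16). Hsp90ab1, which encodes the constitutive Hsp90 beta and is no member, had a TPM of 741.2 to 1017 in WT and 481.3 to 778.6 in RhoB-/- libraries, and these ranges overlapped (log2 fold change -0.45, SE 0.15, adjusted p = 0.0515 in limma, 0.00797 to 0.126 over the alternatives tried). Hsp90 beta transcripts were the more abundant per length in all 10 libraries. The ratio of Hsp90aa1 to Hsp90ab1 was 0.346 to 0.442 in WT and 0.202 to 0.245 in RhoB-/- libraries, without overlap.

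The mitochondrial folding chamber was lower in RhoB-/- libraries, without overlap between the groups for Hspd1 but with overlap for Hspe1. Hspd1 had a TPM of 226.1, 232.4, 213.6, 253.8 and 236.9 in WT and of 141.8, 110.1, 212.4, 191.7 and 142.0 in RhoB-/- libraries. RhoB-/- replicate 3 almost reached the lowest WT library (log2 fold change -0.58, SE 0.16). Hspe1 had a TPM of 243.5, 268.5, 225.6, 262.9 and 238.9 in WT and of 137.4, 114.9, 261.9, 196.2 and 146.4 in RhoB-/- libraries. Here RhoB-/- replicate 3 lay among the WT libraries and the groups overlapped (log2 fold change -0.59, SE 0.19). Hspe1 met the call rule and Hspd1 did not, but both lie at its edge. Hspe1 met it in 1 of the 10 fits that left out a library, without RhoB-/- replicate 3. Hspd1 met it in 4, without WT replicate 1 or 3 or RhoB-/- replicate 3 or 4. The contrast behind these calls also chose the members, so they are no test of either gene. Hspe1 kept pace with Hspd1, at a ratio of 1.07 ± 0.06 (SD, n = 5) for WT mice and of 1.06 ± 0.10 (SD, n = 5) for RhoB-/- mice. The 12 pseudogenes and related sequences of Hspd1 and Hspe1 named in the table reached at most 1.22 TPM.

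The small heat shock protein Hspb1 was low and uneven. Its TPM was 36.7, 53.0, 8.76, 34.2 and 5.36 in WT replicates 1 to 5 and 1.09, 3.24, 2.35, 3.18 and 2.58 in RhoB-/- replicates 1 to 5. The groups did not overlap, but WT replicates 3 and 5 were closer to the RhoB-/- libraries than to the other WT libraries, and the WT values spanned a 9.88-fold range against a 1.93-fold range at most for any other member in WT. The log2 fold change was -2.66 (SE 0.52), from -3.09 to -2.32 when a library was left out. In Hspa1a, Hspa1b and Hspe1 the WT replicates 3 and 5 were also the lowest of their genotype, but close to WT replicate 1.

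**Figure D3:**
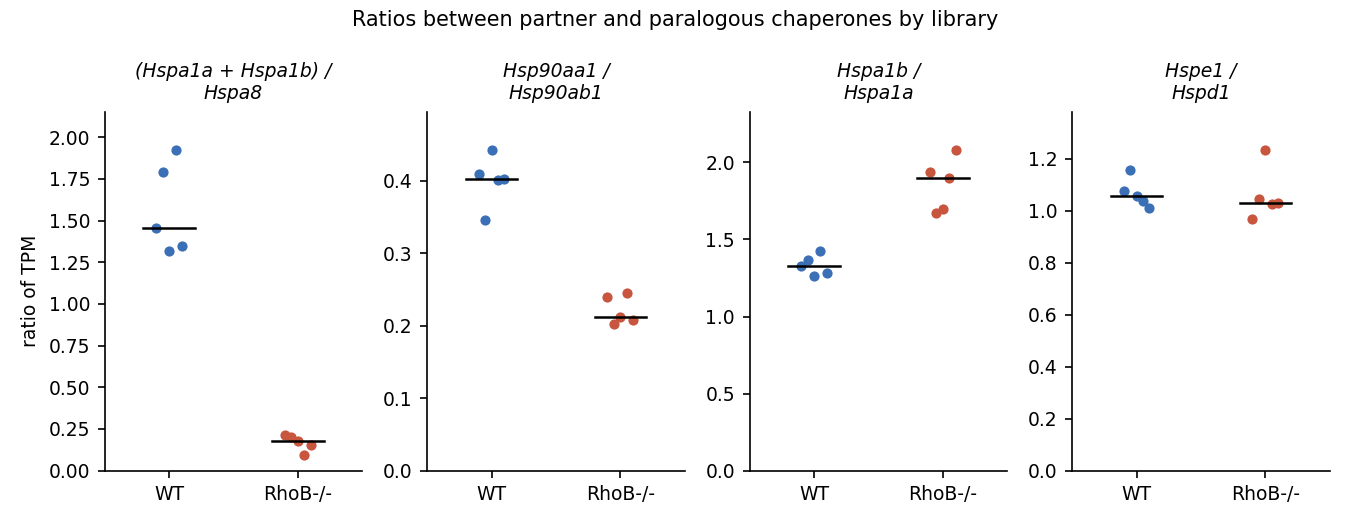
Ratios of TPM between chaperone genes in each library (linear axes from 0; WT in blue, RhoB-/- in red, black line at the median of 5 libraries). The ratio of inducible Hsp70 to Hspa8 is 1.32 or more in WT and 0.215 or less in RhoB-/- libraries, that of Hsp90aa1 to Hsp90ab1 is also lower without overlap, that of Hspa1b to Hspa1a higher, and that of Hspe1 to Hspd1 overlaps.

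The other chaperone genes mostly did not differ by the same rule. The members had been taken out because they were lower, so the low share called here was partly set by that choice. Of 114 chaperone genes outside the 10, grouped in 6 lists, 100 were tested, 2 fell (7.13% of all tested genes did) and 1 rose (5.58% did), or 3% against 12.7% in either direction, and their median log2 fold change of -0.13 was that of all tested genes. Both that fell are J-domain proteins, partners of Hsp70. Dnaja4 had a TPM of 5.99 to 8.89 in WT and 1.0 to 2.06 in RhoB-/- libraries (log2 fold change -1.86, SE 0.15), and Dnajb4 of 9.55 to 16.0 against 3.96 to 6.64 (log2 fold change -1.18, SE 0.16). The gene that rose was Fkbp5, a co-chaperone of Hsp90 known as a target of the glucocorticoid receptor, with a TPM of 46.1 to 57.6 in WT and 92.3 to 129.7 in RhoB-/- libraries (log2 fold change 1.08, SE 0.12). The Benjamini-Hochberg adjusted p of limma was 5.96e-06 for Dnaja4, 0.000505 for Dnajb4 and 8.44e-05 for Fkbp5, and 5 of 5 RhoB-/- libraries lay beyond all WT libraries for each. Without RhoB-/- replicate 3 the number that fell was 6, with Hspb6, Dnajc9, Dnajc18 and Hscb added.

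By list, 21 of 23 J-domain proteins and 22 of 23 co-chaperones did not meet the call rule. Of these co-chaperones, 1 was lower at an adjusted p below 0.05 in limma but missed the fold threshold. None of the 7 other tested Hsp70, Hsp110, Hsp90 and small heat shock genes met the rule. At an unadjusted p below 0.05 in limma, 1 was higher and 2 lower. Hspb6 was lower at an adjusted p of 0.0454 in limma but missed the fold threshold (log2 fold change -0.57). Hspa4, an Hsp110 relative, had a mean TPM of 51.4 in WT and 47.4 in RhoB-/- IECs (log2 fold change -0.13), and Hspa4l of 14.7 and 13.5 (-0.11). Hspa1l, the neighbour of Hspa1a, was at 0.63 to 1.08 TPM in WT and 0.11 to 0.69 TPM in RhoB-/- libraries, below the filter, as were Hspa2, Cryab and Hspb8. None of the 14 cytosolic TRiC chaperonin and prefoldin genes met the rule (0 higher and 3 lower at an unadjusted p below 0.05, limma). Nor did any of the 13 mitochondrial chaperones and proteases (2 higher and 7 lower). At any fold, 5 of these 13 were lower at an adjusted p below 0.05 in limma, as were 1734 of all 12870 tested genes. Hspa9, the Hsp70 of the mitochondrial matrix, had a log2 fold change of -0.37. None of the 20 chaperones of the endoplasmic reticulum met the rule (1 higher and 1 lower at an unadjusted p below 0.05, limma). Hspa5, their Hsp70, had a mean TPM of 448.7 in WT and 457.0 in RhoB-/- IECs. The usual partners of the inducible members also missed the threshold, with log2 fold changes of -0.38 for Dnaja1, -0.21 for Stip1, -0.27 for Fkbp4 and 0.22 for Chordc1.

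**Figure D4:**
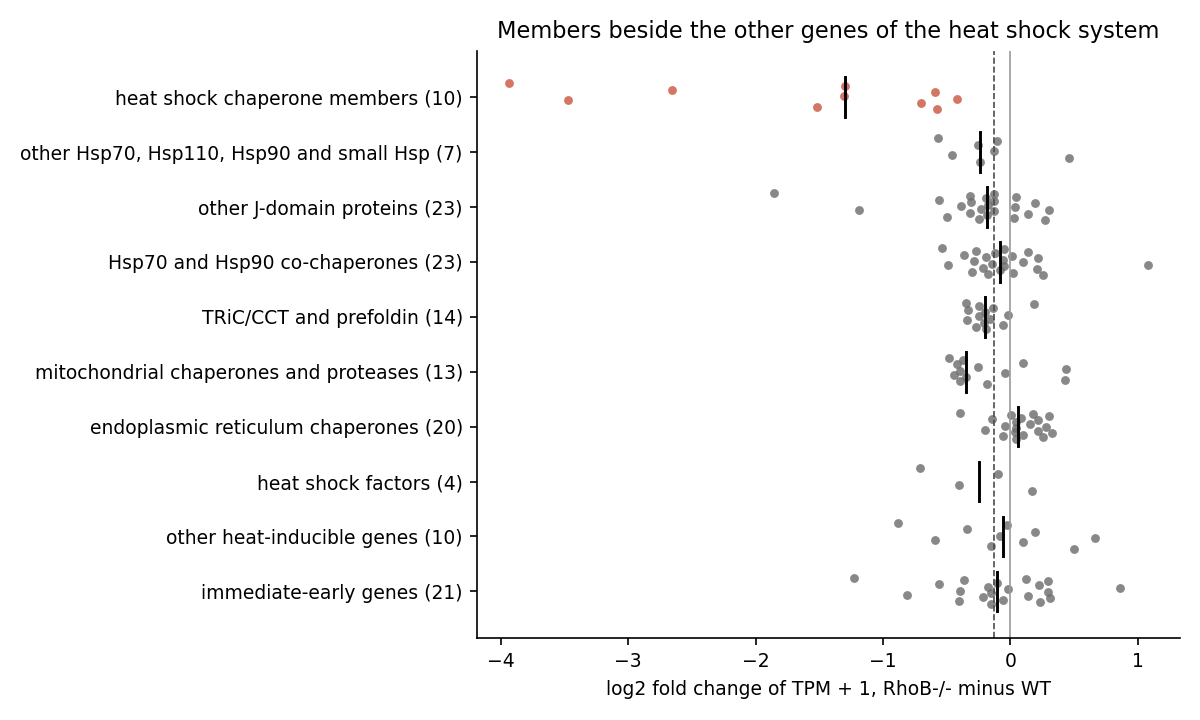
Log2 fold change of TPM + 1, RhoB-/- minus WT, of the 10 members (red) and of the tested genes of 9 other lists (grey, number of genes in brackets), with a black bar at each median, a solid line at 0 and a dashed line at the median of all tested genes, -0.13. The members reach from -3.93 to -0.41, and the list medians lie between -0.35 and 0.06.

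Of 14 tested heat shock factors and heat-inducible genes that are not chaperones, 3 fell (Hsf2, Hmox1 and Slc5a3), or 21.4% against 7.13% of all tested genes in that direction, and their median log2 fold change was -0.09. Hsf1, the main heat shock factor, had a mean TPM of 16.8 in WT and 15.8 in RhoB-/- IECs (log2 fold change -0.09, SE 0.13, turning to 0.02 when libraries were centred). Hsf2, a related factor active in development, fell, with a TPM of 3.49 to 5.80 in WT and 1.49 to 2.82 in RhoB-/- libraries (log2 fold change -0.71, SE 0.16, adjusted p = 0.00943 from limma). Hsbp1, which encodes an inhibitor of HSF1, had a log2 fold change of 0.17. Of 10 other heat-inducible genes 2 fell by the rule and none rose in limma (2 were higher at an unadjusted p below 0.05), but 2 rose without RhoB-/- replicate 2 (Ier5 and Dedd2) and 1 without WT replicate 3 (Dedd2). Hmox1, the haem oxygenase, had a mean TPM of 5.09 in WT and 2.33 in RhoB-/- IECs (log2 fold change -0.88, adjusted p = 0.0135 from limma). Slc5a3, a myo-inositol transporter, differed by -0.59 on the log2 scale (adjusted p = 0.0372 from limma, 0.0172 to 0.106 over the alternatives) and lost the call when any library but WT replicate 1 or RhoB-/- replicate 4 was left out. Cirbp and Rbm3, RNA-binding proteins known to rise in the cold, had log2 fold changes of -0.67 and -0.49. Only Cirbp met the rule (adjusted p = 0.0346 from limma, 0.00460 to 0.0918 over the alternatives), and it lost the call when any library but WT replicate 1 or RhoB-/- replicate 3 was left out. Rbm3 met it without RhoB-/- replicate 3.

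Immediate-early genes, which cells switch on within minutes of many stimuli, tissue dissociation among them, were abundant in both genotypes. Of 21 tested genes 2 fell and none rose in limma (0 higher and 2 lower at an unadjusted p below 0.05). The share that fell, 9.52%, was near the 7.13% of all tested genes that did. Fos had a TPM of 449.2 to 1458 in WT and 805.6 to 1216 in RhoB-/- libraries. Jun, Egr1 and Atf3 overlapped likewise, with log2 fold changes of -0.11, -0.01 and 0.22, and the sign of all 4 turned under at least 1 alternative. The genes that fell were Klf2, with a TPM of 30.5 to 86.1 in WT and 18.8 to 35.3 in RhoB-/- libraries (log2 fold change -1.23, adjusted p = 0.00781 from limma), and Nr4a1, with 39.1 to 97.0 against 31.3 to 53.3 (-0.81, adjusted p = 0.0324 from limma, 0.00331 to 0.0905 over the alternatives). Nr4a1 kept the call when WT replicate 1 or RhoB-/- replicate 3 or 4 was left out and lost it without any of the other 7 libraries.

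Markers of other cells differed between the genotypes together with the chaperones. By the call rule 5.58% of all tested genes rose and 7.13% fell. Of 7 tested immune cell markers 6 rose, with a summed TPM of 9.93 to 17.8 in WT and 45.1 to 63.7 in RhoB-/- libraries over all 12 genes of the list. S100a8, below the filter, was listed at 0 in every WT library. It was at 4.99, 0, 0, 0.52 and 1.49 TPM in RhoB-/- replicates 1 to 5. Of 3 tested stromal markers 2 rose (summed TPM 8.93 to 12.2 against 13.4 to 55.2 over 10 genes), and Acta2, Myh11 and Des had a mean below 0.2 TPM in both genotypes. Of the epithelial lists, 4 of 8 colonocyte, 3 of 8 goblet cell and 3 of 4 tuft cell markers rose. By contrast, 5 of 6 enteroendocrine markers fell (summed TPM 418.9 to 590.4 against 169.5 to 273.4), and 2 of 9 proliferation markers fell. All 9 proliferation markers had a log2 fold change below 0 (65.4% of all tested genes did), with a median of -0.49. The part of these shifts in the chaperone values was not tested. In bulk RNA, fewer cells of a type and less RNA per cell cannot be told apart, so a lower TPM of a chaperone can reflect either.

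The variation between mice of the same genotype was not used to choose the members. Each value was expressed as the deviation of log2(TPM + 1) from its genotype mean, over 10 libraries, and the 45 pairs of members were compared. Pearson's r had a mean of 0.36 and was above 0 for 41 pairs. Hspa1a and Hspa1b moved together (r = 0.96, Spearman's rank coefficient 0.95, r = 0.92 without the 2 libraries farthest from the median), although shared reads tie these values. Hspd1 and Hspe1 did so as well (r = 0.96, rank coefficient 0.94, 0.91 without the 2 farthest libraries), as did Hsp90aa1 and Hspd1 (r = 0.90, rank coefficient 0.84, 0.85). The strong r of 0.91 between Hspa8 and Hsph1 rested on RhoB-/- replicates 2 and 4 and was 0.13 without them. Hspa1a and Hspa8 had an r of 0.19 (rank coefficient 0.25), which was 0.70 without the same 2 libraries, so this value also rested on them, and Hspb1 and Bag3 went in opposite directions (r = -0.62, rank coefficient -0.60, -0.35 without WT replicates 3 and 5). These values are descriptions over 10 libraries that share library-wide shifts.

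RhoB-/- replicate 2 was the lowest RhoB-/- library for 7 of the 10 members, and it had the highest mitochondrial share of its genotype, 22.4%. Without it the mean r between members was 0.15. RhoB-/- replicate 3, with the lowest mitochondrial share of 10.3%, had the highest mean deviation of the members within RhoB-/- (0.23). The library labelled RhoB-/- replicate 5 was neither the lowest nor the highest of its genotype for any member, although it held Rhob transcripts. For 7 members the SD of log2(TPM + 1) was larger in RhoB-/- than in WT mice, the exceptions being Dnajb1, Hspb1 and Bag3.

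**Figure D5:**
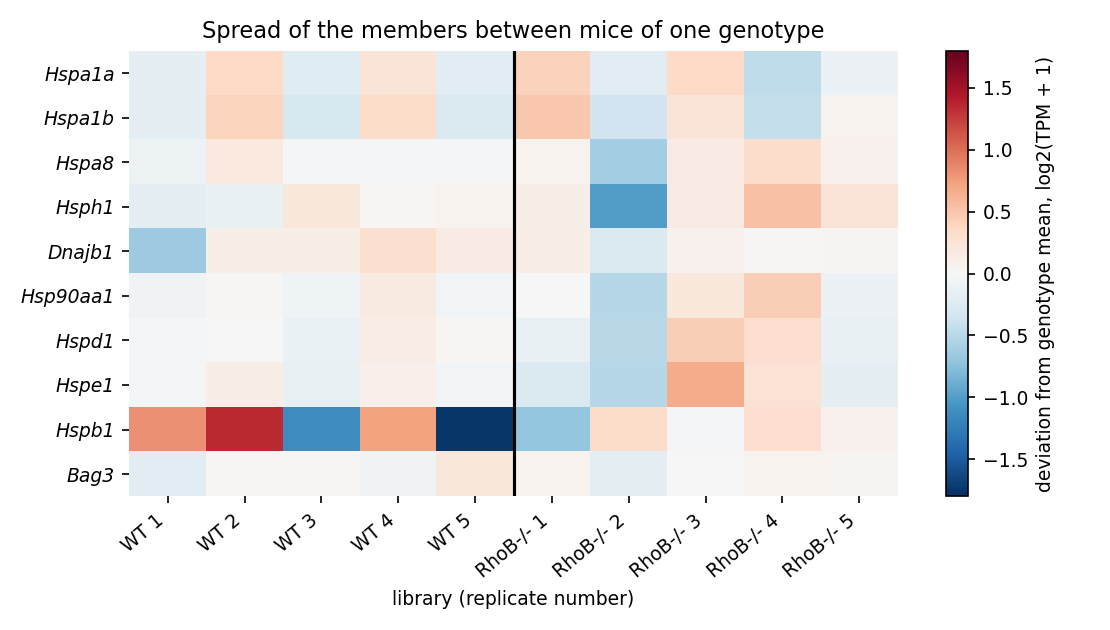
Deviation of each member from the mean of its genotype on the log2(TPM + 1) scale (colour, red above and blue below the mean), for 5 WT and 5 RhoB-/- libraries divided by the black line. Hspb1 divides the WT libraries, from 1.34 in replicate 2 to -1.75 in replicate 5, and RhoB-/- replicate 2 is blue for 9 members.

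The genes whose deviations were most like the mean deviation of the members were Hnrnpu, Zfp553, Gnpat, Supt16, Nedd1 and Abcf1, with r from 0.96 to 0.98 over 10 libraries among 12860 genes compared. The order was not stable, since 1 to 4 of these 6 stayed among the 6 most alike when a library was left out (1 without WT replicate 2 or RhoB-/- replicate 3). Such likeness was common, since 153 genes had an r above 0.9 (173 to 336 when a library was left out), and when each library was centred on its median deviation 2 genes did and the mean r between members was 0.10. The most alike gene, Hnrnpu, which encodes a nuclear RNA-binding protein, had a mean TPM of 138.8 in WT and 121.1 in RhoB-/- IECs (log2 fold change -0.19, adjusted p = 0.221 from limma). The log2 fold changes of the 6 genes were between -0.47 and -0.11, and none met the call rule.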

How the data were processed

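The members and all gene lists were chosen with earlier results of these data known. IEC RNA of 5 WT and 5 RhoB-/- mice was sequenced with TruSeq paired-end libraries. The authors used SeqPrep and Sickle for trimming, HISAT2 in orientation mode for alignment and StringTie for assembly, and deposited RSEM TPM values. The labels name the build GRCm38.p6, and tool versions are not given in the sources used here. Depth is unknown, so precision rests on the spread between mice, and no count test was run.

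The TPM were tested with limma 3.58.1 in R 4.3.3 (lmFit, eBayes with trend) on log2(TPM + 1) for genes with mean TPM of at least 1, two-sided, with Benjamini-Hochberg adjustment over all tested genes. A call needed an adjusted p below 0.05 and a fold above 1.5. The fit was tested on simulated data.

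The design named a count model for the case of counts, which the table does not hold. Genes named are the members, Rhob, up to 3 called genes with the largest change per list, a set list of relatives and the 6 genes of highest likeness; Hspb6, Dnajc9, Dnajc18, Hscb, Ier5, Dedd2, Dnajb6 and the cell markers were named after their values were seen. Positions are from GENCODE M21 (55141 of 55487 identifiers found) and sequences from RefSeq. The alternatives were a pseudocount of 0.1, no filter, removal of mitochondrially encoded genes, centring of each library, a replicate block, each library left out, other thresholds and the summed Hspa1 pair. The sample titles name no pairing of the mice by replicate number.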

Additional observations from a re-analysis of the deposited data

Results flagged for a closer look

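Among 82 groups of 5 libraries, the 2 genotypes of the 41 genes named, 6 held a value far from the other 4 by Dixon's criterion, where chance gives about 1 in 20, or 4.1. Among the members, Hspa8 was high in WT replicate 2, at 1409.86 TPM, and Dnajb1 was low in WT replicate 1, at 72.16 TPM. Bag3 was low in RhoB-/- replicate 2, at 23.77 TPM, a library that was also the lowest of its genotype for 6 other members. Rhob was high in the library labelled RhoB-/- replicate 5, at 110.87 TPM. Outside the members, Chordc1 was low in WT replicate 3, at 17.61 TPM, and Cirbp high in RhoB-/- replicate 3, at 29.61 TPM. What these 6 values stem from was not tested.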

How the results depend on the processing

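The log2 fold change of every member stayed negative and moved by less than the spread between mice under each alternative run for it, with a median over members of -1.39 to -1.19. From 7 to 9 members met the call rule, Hspe1 and Hspd1 being those that changed. Over the same alternatives 539 to 1426 of all tested genes met it in that direction. The members were chosen by this contrast, so their counts are a description and no test. Hspe1 missed it with no filter, with centring and under the replicate block, and Hspd1 met it once mitochondrially encoded genes were removed.

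Of all tested genes 918 fell and 718 rose; the number that fell was 1426 without mitochondrially encoded genes, 539 with every library centred (950 rose) and 1734 at any fold. Of the other chaperone genes 4 fell with a pseudocount of 0.1, 5 without mitochondrially encoded genes and 9 at any fold, and 2 to 6 when a library was left out. Of the heat shock factors and other heat-inducible genes 2 rose with centring, 1 at an unadjusted p and 0 to 2 when a library was left out. Of the immediate-early genes 1 fell with no filter and 1 to 2 when a library was left out. With centring the sign turned for Hspa4l (0.0091), Hsf1 (0.0219), Jun (0.0098) and Egr1 (0.1004), and without mitochondrially encoded genes for Hspa5 (-0.0667). Leaving out a library gave log2 fold changes of -0.0516 to 0.1325 for Hspa5, -0.138 to 0.286 for Fos, -0.3096 to 0.018 for Jun, -0.3191 to 0.2446 for Egr1 and -0.1122 to 0.4883 for Atf3. The cause of these shifts was not tested.

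Under the replicate block, 812 genes fell and 715 rose, 1 of the heat shock factors and other heat-inducible genes among the latter (Dedd2), and Slc5a3 and Hspe1 lost their calls. The sample titles name no pairing of the mice by number. Deviations of libraries with the same number had r from -0.087 to 0.072, and only RhoB-/- replicate 3 correlated best with the WT library of its number. These values cannot show whether mice of the same number were handled together. Unknown depth, 5 mice a genotype and reads shared by Hspa1a and Hspa1b limit these values.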
